A study of Mus musculus with 3 samples.

Results

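The genes described here are 10 regulators of the G1 phase of the cell cycle: the D-type cyclins Ccnd2 and Ccnd3, the E-type cyclins Ccne1 and Ccne2, the cyclin-dependent kinases (CDKs) Cdk4, Cdk6 and Cdk2, and the CDK inhibitors Cdkn1a, Cdkn1b and Cdkn2c. They were taken by name from a count table of 25638 genes, in which all 10 were found. The table holds read counts from RNA-seq of CD8+ T cells. The sources used here describe the cells as splenic and from untreated mice of wild-type genotype. There are 3 groups of 1 library each: naive cells (not yet exposed to their antigen), central memory cells and effector memory cells. The sources used here do not give strain, age, sort markers or the number of animals per library. With 1 library per group no difference has a replicate check, no p-value was computed, and each comparison is between single libraries.

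G1 is the phase in which a cell decides whether to copy its genome. D-type cyclins bind CDK4 or CDK6, and these complexes phosphorylate the retinoblastoma protein, which then releases E2F transcription factors. E-type cyclins, themselves E2F targets, bind CDK2 and drive entry into S phase. Inhibitors of the INK4 family (p15, p16, p18 and p19) bind CDK4 and CDK6, while those of the CIP/KIP family (p21, p27 and p57) bind whole cyclin-CDK complexes. Lymphocytes use mostly cyclins D2 and D3, and resting T cells are known for a high level of p27.

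Totals ran from 26876909 to 35846315 counts per library. Levels are counts per 1000000 (CPM) scaled by factors from the trimmed mean of M values (TMM), and a count of 0 allowed between 0.0837 and 0.108 CPM (3 counts per library). Each interval given is a 95% counting interval and, like the floors, covers counting error only. All 10 T cell identity genes were above 5 CPM in each library, with sums of 6375 (naive), 5083 (central memory) and 3430 CPM (effector memory), and 3 of them (Cd8a, Cd8b1 and Cd5) were lower in effector memory than in naive by the call rule given below. Cd8a, part of the CD8 coreceptor, was at 1868, 1063 and 408 CPM. Sums over 5 CD4 and regulatory T cell markers went the other way, at 16.5, 121 and 402 CPM. The top gene was Ctla4, which activated CD8+ T cells also express, at 8.73, 81.7 and 308 CPM. Zbtb7b was at 1.33, 37.4 and 93.6 CPM. Other markers of this list did not follow the sum. Cd4 was at 2.12, 0.251 and 0.281 CPM, Foxp3 at 3.95, 1.70 and 0.156 CPM, and Cd40lg at 0.323, 0.363 and 0.281 CPM. Cd44, a marker of antigen-experienced T cells, stood at 2.95 (naive), 45.8 (central memory) and 113 CPM (effector memory). Summed over 8 NK cell markers the level was 39.1, 151 and 95.1 CPM, most of it Eomes in naive and effector memory, and Ncr1 had counts in central memory alone. In central memory against naive, 5 of 6 measured NK cell markers were called higher, among them Klrb1c (0.216, 33.0 and 1.91 CPM). In effector against central memory, 4 of 6 were called lower and none higher. In effector memory against naive, 2 of 2 measured were called higher. Sums over 8 B cell markers were 36.4, 6.50 and 2.81 CPM, with Ms4a1 at 0 in both memory libraries, and 8 erythroid markers summed to at most 2.28 CPM. Sums over 10 myeloid markers were 7.87, 8.04 and 25.4 CPM, most of the last being Cd68 (3.38, 4.05 and 21.1 CPM), which was called higher in effector memory than in both other libraries, and Adgre1 and Mpo were at 0 in all 3 libraries. The part of other cell types in the results below was not tested. The segment Trbv12-1 made up 99.6% (central memory), 98.4% (effector memory) and 7.13% (naive) of T cell receptor Trbv counts. How this receptor use relates to the stated genotype and treatment was not tested. Memory state and receptor use thus cannot be told apart. In such bulk RNA a gene expressed by fewer cells and less of its RNA per cell cannot be told apart either.

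A difference counts as called here if the higher of both libraries reached 5 CPM, the ratio was 2 or more and its interval left out 1. Against naive, 3 of the 10 genes were called higher in central memory (Ccne2, Cdk6 and Cdkn2c) and none lower, beside 11.2% of 9737 genes at 5 CPM called higher and 5.12% called lower. Of the 10 genes, 9 reached 5 CPM in that comparison, and Cdkn1a could not be called there because it stood below the limit in both libraries. In effector memory against naive, 8 of the 10 were called higher and 1, Ccnd2, lower, beside 22.3% of 10087 genes called higher and 15.6% called lower. Between the memory libraries, Ccne2, Cdk2 and Cdkn1a were called higher in effector memory and Ccnd2 lower, beside 14.8% of 9975 genes called higher and 12.8% called lower. The median log2 ratio of the 10 genes was 0.57 for central memory against naive, 1.53 for effector memory against naive and 0.82 for effector against central memory. The medians over all genes at 5 CPM were 0.14, 0.06 and -0.06. The comparisons share libraries, so their counts are not independent of each other. The 10 genes were chosen with earlier results of these data known, so the shares over all genes describe and do not test the counts.

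**Figure D1:**
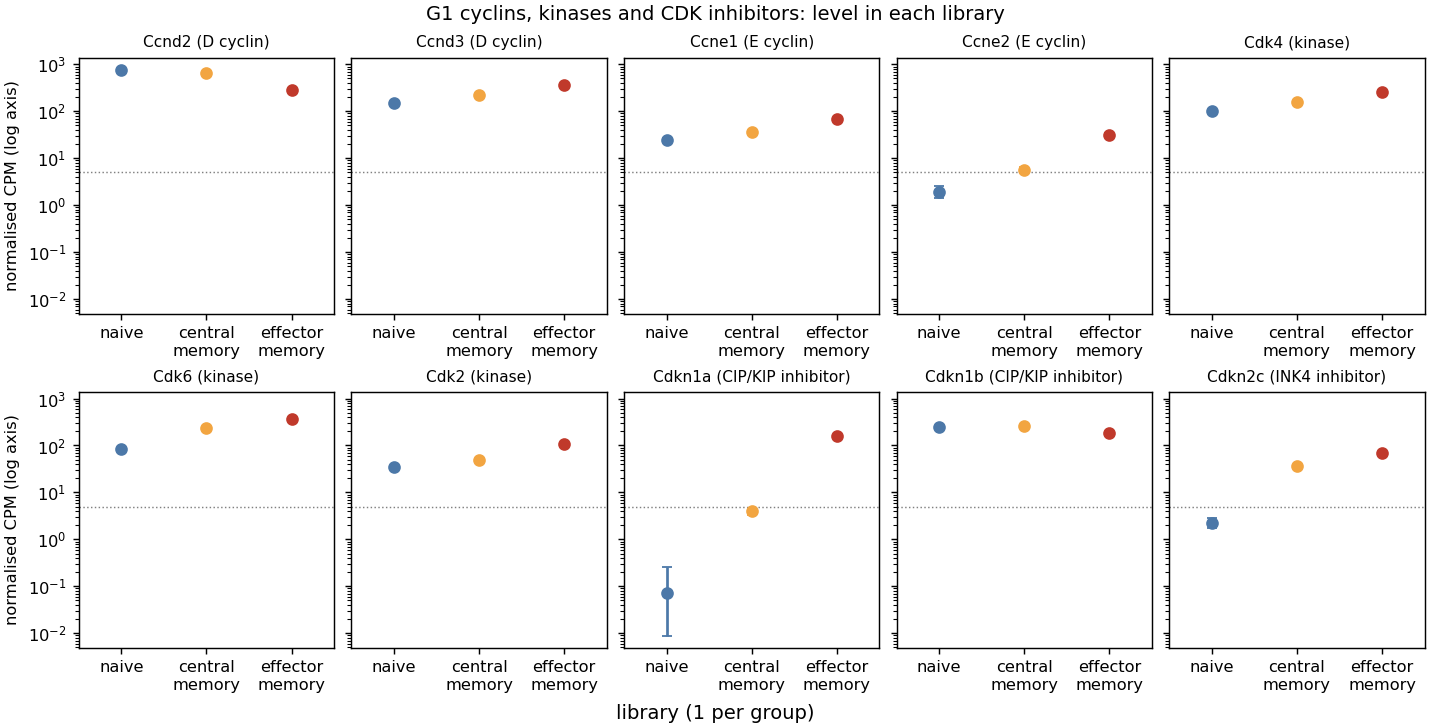
Level of each of the 10 genes (normalised CPM, log axis) in the naive, central memory and effector memory libraries, 1 point per library with its exact 95% Poisson interval, which is often smaller than the point. The dotted line is the 5 CPM limit for a call. For 8 genes the order is naive, central memory, effector memory from low to high, while Ccnd2 runs the other way and Cdkn1b is lowest in effector memory.

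The 2 D cyclins measured went in opposite directions. Ccnd2 (ENSMUSG00000000184.12, chromosome 6, 127125162 to 127152193, minus strand), which encodes cyclin D2, stood at 759 (naive), 640.0 (central memory) and 278 CPM (effector memory). It was 2.73-fold lower in effector memory than in naive (interval 2.66 to 2.80) and 2.30-fold lower than in central memory (interval 2.24 to 2.36). The naive and central memory libraries differed less, with a ratio of 0.843 (interval 0.827 to 0.859) that was not called.

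Ccnd3 (ENSMUSG00000034165.16, chromosome 17, 47505051 to 47599691, plus strand), which encodes cyclin D3, was at 152, 218 and 360.5 CPM in the same order. It was 2.37-fold higher in effector memory than in naive (interval 2.29 to 2.46). Neither its ratio of 1.44 for central memory against naive (interval 1.38 to 1.49) nor that of 1.65 between the memory libraries (interval 1.60 to 1.70) was called. Ccnd1, the third D cyclin, was at 0.0313 to 0.307 CPM in the 3 libraries.

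Set per exon length, the leading D cyclin changed between the libraries. Per kilobase of exon, Ccnd2 stood at 80.7, 68.0 and 29.6 CPM in naive, central memory and effector memory, and Ccnd3 at 17.3, 24.9 and 41.1. Ccnd3 made up 17.7% of D cyclin RNA per length in naive (interval 17.2% to 18.2%), 26.8% in central memory (interval 26.3% to 27.3%) and 58.1% in effector memory (interval 57.4% to 58.8%). This share is taken within a library and does not depend on the scaling between libraries. The sum of the 3 D cyclins per kilobase was 98.1, 93.0 and 70.7 CPM, so the sum was lowest in effector memory although Ccnd3 was highest there.

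**Figure D2:**
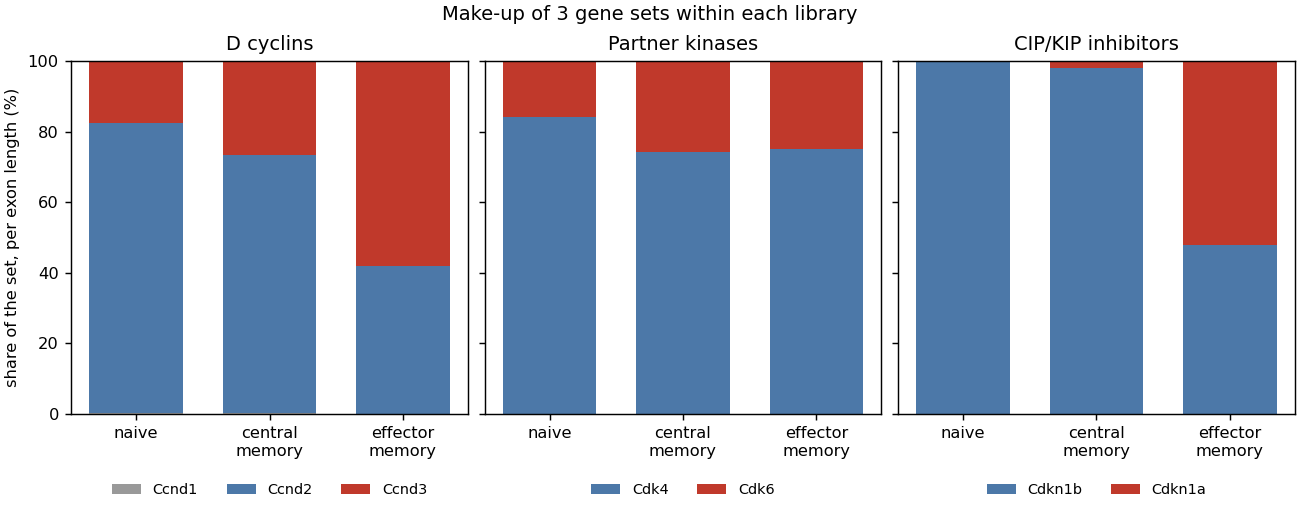
Stacked bars of the share of each gene in its set (%, per merged exon length) in the 3 libraries, for the D cyclins, for Cdk4 with Cdk6 and for Cdkn1a with Cdkn1b. Ccnd3 and Cdkn1a each make up more of their set in effector memory (58.1% and 52.1%) than in naive (17.7% and 0.0378%), while Cdk6 stays at 15.9% to 25.8% of its set. Ccnd1 is too low to be seen.

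The partner kinases of the D cyclins were both higher in effector memory. Cdk6 (ENSMUSG00000040274.11, chromosome 5, 3341485 to 3531008, plus strand) stood at 83.7 (naive), 237 (central memory) and 362 CPM (effector memory). It was 2.83-fold higher in central memory than in naive (interval 2.70 to 2.96) and 4.33-fold higher in effector memory than in naive (interval 4.14 to 4.53). The ratio between the memory libraries was 1.53 (interval 1.49 to 1.58), so most of the distance of effector memory from naive was already present in central memory.

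Cdk4 (ENSMUSG00000006728.12, chromosome 10, 127063534 to 127067920, plus strand) stood at 103 (naive), 158 (central memory) and 254 CPM (effector memory). It was 2.46-fold higher in effector memory than in naive (interval 2.36 to 2.57). The ratios of 1.53 for central memory against naive (interval 1.46 to 1.60) and 1.61 between the memory libraries (interval 1.56 to 1.67) were not called. The 641 bases of exon that Cdk4 shares with Tspan31 on the opposite strand are 19.7% of its exon length, and Tspan31 had 427, 1544 and 2592 counts in the 3 libraries. The sources used here do not say whether the counting used strand, so reads from the shared bases cannot be told apart. Per exon length Cdk4 was the more abundant of both kinases, at 31.7, 48.5 and 78.1 CPM per kilobase against 5.98, 16.9 and 25.9 for Cdk6. Cdk6 made up 15.9% of the pair in naive, 25.8% in central memory (interval 25.2% to 26.5%) and 24.9% in effector memory (interval 24.4% to 25.4%). Without a length the Cdk6 share was 44.8%, 60.02% and 58.8% of raw counts, so which kinase leads in the memory libraries depends on the length.

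The promoter of Cdk4 is printed because Cdk4 is known as a target of the transcription factor Myc, which binds the E-box CACGTG. RefSeq start sites on build GRCm38.p6 were available for 8 of the 10 genes (11 entries), without Ccnd2 and Ccne2. The 250 bases before the Cdk4 start (chr10:127063285-127063534, plus strand) hold the E-box at 4 places, shown in capitals, starting at -172, -118, -98 and -11 counted back from the start site:
Cdk4 promoter: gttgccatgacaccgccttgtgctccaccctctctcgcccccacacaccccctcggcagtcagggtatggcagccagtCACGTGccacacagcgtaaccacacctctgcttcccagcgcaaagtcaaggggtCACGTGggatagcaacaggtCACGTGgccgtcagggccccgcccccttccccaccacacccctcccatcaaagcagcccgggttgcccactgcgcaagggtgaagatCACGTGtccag
Of 32851 promoter entries of this length, 6.02% hold at least 1 CACGTG (the same on both strands) and 7 entries, or 0.0213%, hold 4 or more. Among the other 7 genes with an entry, the window of Cdk6 alone had a match, with 1. Myc RNA stood at 178 (naive), 303 (central memory) and 156 CPM (effector memory), and Mycn, its relative that binds the same E-box, at 0.144, 0.502 and 43.7 CPM. The part of either factor in the Cdk4 values was not tested. A match is a description of the letters and not a binding site.

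**Figure D3:**
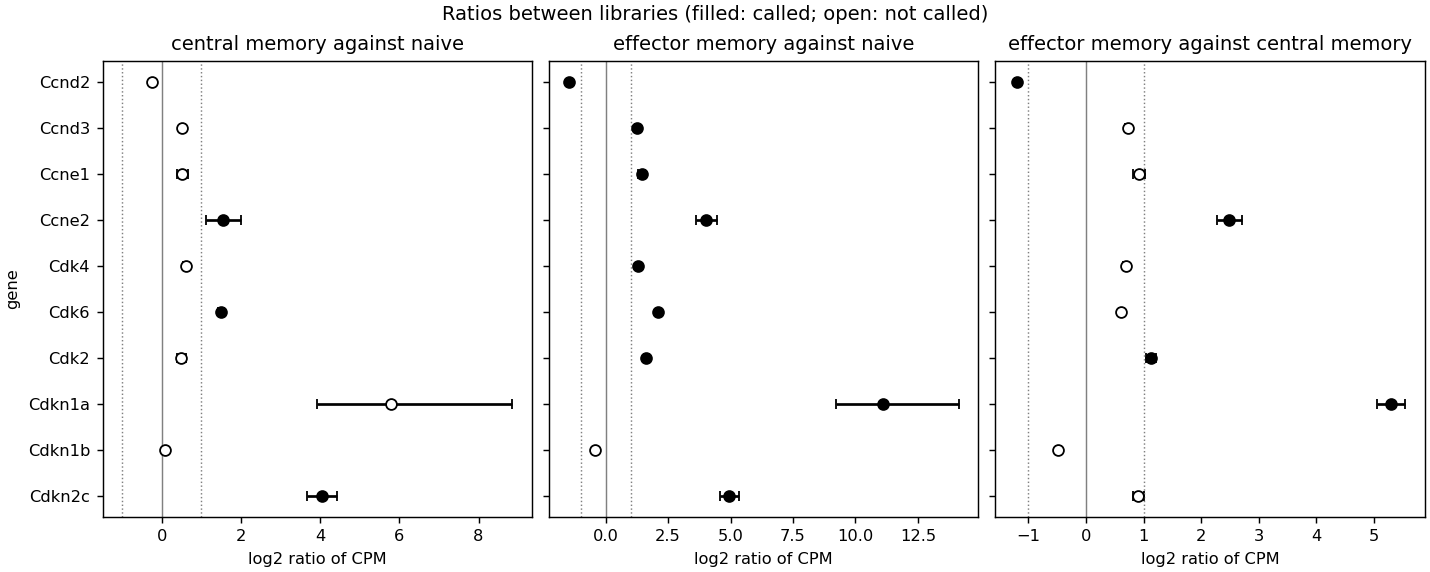
Log2 ratio of CPM for each of the 10 genes in the 3 comparisons, with the exact 95% counting interval. Filled points were called and open points were not, and dotted lines mark a ratio of 2 in either direction. Ccnd2 is the gene left of the dotted line at -1 in both comparisons with effector memory, and Cdkn1a lies farthest right in all 3, at log2 ratios of 5.80, 11.08 and 5.29.

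The E cyclins and their kinase were also highest in effector memory. Ccne1 (ENSMUSG00000002068.16, chromosome 7, 38097984 to 38107534, minus strand), which encodes cyclin E1, stood at 24.8 (naive), 35.5 (central memory) and 67.3 CPM (effector memory). It was 2.71-fold higher in effector memory than in naive (interval 2.48 to 2.96). Its ratios of 1.43 for central memory against naive (interval 1.30 to 1.57) and 1.90 between the memory libraries (interval 1.77 to 2.03) were not called.

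Ccne2 (ENSMUSG00000028212.16, chromosome 4, 11191351 to 11204779, plus strand), which encodes cyclin E2, had 54, 203 and 1016 counts, or 1.94, 5.67 and 31.8 CPM. It was 2.92-fold higher in central memory than in naive (interval 2.15 to 4.02), 16.4-fold higher in effector memory than in naive (interval 12.4 to 21.9) and 5.61-fold higher in effector than in central memory (interval 4.82 to 6.55). Ccne1 exceeded Ccne2 in each library per exon length. The distance shrank from 9.33 against 0.555 CPM per kilobase in naive to 25.3 against 9.09 in effector memory. Exons of Ints8 on the opposite strand cover 17.4% of the Ccne2 exon length, and Ints8 had 1537, 1733 and 1645 counts.

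Cdk2 (ENSMUSG00000025358.16, chromosome 10, 128697939 to 128705031, minus strand), the kinase partner of the E cyclins, was at 34.4, 48.6 and 106 CPM. It was 3.09-fold higher in effector memory than in naive (interval 2.87 to 3.32) and 2.19-fold higher than in central memory (interval 2.06 to 2.32). The ratio of central memory to naive was 1.41 (interval 1.30 to 1.53) and was not called. Cdk2 was the only one of the 8 genes with an entry whose 250 bases before the start (chr10:128705052-128705301, minus strand) hold the E2F motif TTTCCCGC, and its promoter is printed for that reason. The match lies on the reverse strand at -140, in capitals as GCGGGAAA:
Cdk2 promoter: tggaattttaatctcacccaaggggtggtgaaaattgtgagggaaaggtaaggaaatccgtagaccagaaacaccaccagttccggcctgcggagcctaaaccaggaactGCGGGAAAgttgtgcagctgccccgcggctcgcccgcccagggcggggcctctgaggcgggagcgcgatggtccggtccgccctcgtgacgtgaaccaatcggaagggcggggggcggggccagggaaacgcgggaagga
The motif was searched on both strands and is found in 0.895% of the 32851 windows. The absence of these letters from the windows of the other genes says only that they are not in those 250 bases.

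Among the inhibitors, Cdkn1a showed the widest range of the 10 genes. Cdkn1a (ENSMUSG00000023067.14, chromosome 17, 29090976 to 29100727, plus strand), which encodes p21, had 2 (naive), 143 (central memory) and 4992 counts (effector memory), or 0.0719, 3.99 and 156 CPM. It was 2172-fold higher in effector memory than in naive, with a wide interval of 601 to 17938 because of the 2 counts. The ratio between the memory libraries rests on more counts and was 39.1 (interval 33.1 to 46.5). Central memory stood 55.5-fold above naive (interval 15.1 to 463) at a level under the 5 CPM limit.

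Cdkn1a has 2 start sites in RefSeq, and the downstream window is printed because the GC boxes (GGGCGG) bound by Sp and KLF factors are a known feature of the p21 promoter. The 250 bases before that start (chr17:29093519-29093768, plus strand) hold the GC box at -104 and -46, in capitals:
Cdkn1a promoter: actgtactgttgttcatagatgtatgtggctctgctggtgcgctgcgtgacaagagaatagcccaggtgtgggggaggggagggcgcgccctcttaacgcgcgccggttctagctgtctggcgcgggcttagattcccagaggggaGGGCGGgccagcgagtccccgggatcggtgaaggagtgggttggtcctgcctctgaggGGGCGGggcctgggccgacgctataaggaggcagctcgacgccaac
This window has 19 CG dinucleotides, and the window before the upstream start (chr17:29090729-29090978) has 2 and no GC box. The counts are per gene, so they do not tell which start was used. GGGCGG on either strand is found in 32.7% of all windows. Among the genes with an entry, Cdk6 alone had no match. The windows of Ccne1 and Cdk2 had 4 and 5 matches, and a window of Cdkn2c had 3.

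Cdkn1b (ENSMUSG00000003031.14, chromosome 6, 134920401 to 134925513, plus strand), which encodes p27, differed least of the 10 genes between effector memory and naive. It stood at 243 (naive), 257 (central memory) and 184 CPM (effector memory) and was called in no comparison. Its ratio was 0.756 for effector memory against naive (interval 0.730 to 0.783) and 0.716 for effector against central memory (interval 0.693 to 0.740). The ratio of 1.06 for central memory against naive (interval 1.02 to 1.09) has a log2 value of 0.08, which turned to -0.03 with DESeq2 size factors, so no direction is given for it. Per exon length Cdkn1a made up 0.0378% of the 2 genes together in naive (interval 0.00458% to 0.137%), 1.95% in central memory (interval 1.65% to 2.30%) and 52.1% in effector memory (interval 51.1% to 53.03%). Without a length the share in effector memory was 45.9% of raw counts, so which of the 2 leads there depends on the length. Cdkn1c, which encodes p57, had at most 19 counts in a library.

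Cdkn2c (ENSMUSG00000028551.14, chromosome 4, 109660876 to 109667189, minus strand), which encodes the INK4 inhibitor p18, was low in naive and high in both memory libraries. It had 62, 1309 and 2195 counts, or 2.23, 36.5 and 68.6 CPM. It was 16.4-fold higher in central memory than in naive (interval 12.7 to 21.5) and 30.8-fold higher in effector memory than in naive (interval 23.9 to 40.3). The ratio of 1.88 between the memory libraries (interval 1.75 to 2.01) was not called. Between the memory libraries the ratio of Cdkn1a, at 39.1, was thus larger than that of Cdkn2c, with intervals that do not overlap. From naive to central memory their intervals overlap.

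Cdkn2d, which encodes the INK4 inhibitor p19, was the INK4 gene with the highest level per exon length in each library, at 36.1, 33.9 and 53.7 CPM per kilobase, and was not called in any comparison. In naive it made up 97.8% of INK4 RNA per length, in central memory 69.7% and in effector memory 57.2%, while Cdkn2c made up 2.25%, 27.9% and 27.2%. Cdkn2a, whose gene count covers both p16 and the ARF protein, had 0, 46 and 437 counts. Against 3 counts assumed in naive, it was 127-fold higher in effector memory (lower interval limit 103). It was 10.6-fold higher in effector memory than in central memory (interval 7.84 to 14.8). Cdkn2b, which encodes p15, had 0, 3 and 131 counts and stayed under 5 CPM. The sum of the 4 INK4 genes was 37.0, 48.7 and 93.8 CPM per kilobase.

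**Figure D4:**
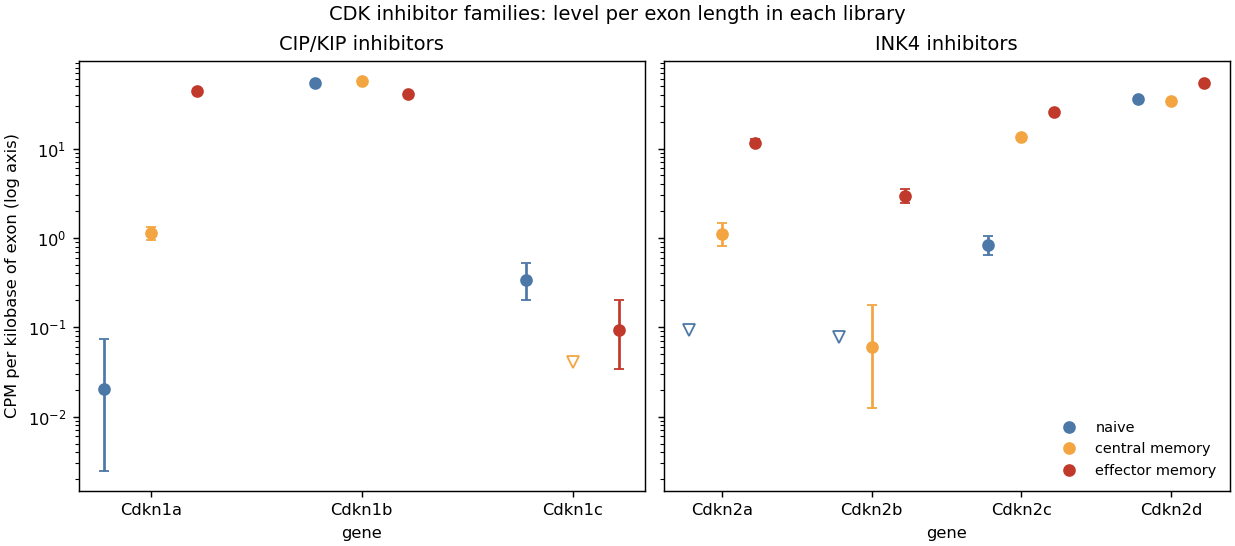
CPM per kilobase of merged exon (log axis) of the 3 CIP/KIP and 4 INK4 inhibitor genes in each library, with exact 95% Poisson intervals. Open triangles mark libraries with 0 counts, drawn at the level that 3 counts would give. In effector memory 5 of the 7 genes lie above 10 CPM per kilobase, and in naive Cdkn1b (53.5) and Cdkn2d (36.1) do.

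The genes that act on and after these regulators were described with 11 lists of pathway genes, whose counts stand beside the shares over all genes given above: 11.2% higher and 5.12% lower in central memory, and 22.3% higher and 15.6% lower in effector memory, each against naive. The retinoblastoma family and E2F list had 6 of 13 measured genes higher and none lower in central memory, and 6 higher and 1 lower in effector memory, each against naive (median log2 ratios 0.89 and 0.87). The same 6 names were called in both: E2f1, E2f2, E2f3, E2f7, E2f8 and Tfdp1. E2f8, a repressor of E2F targets, had 0 naive counts. Against 3 counts assumed in naive, it stood 195-fold higher in central memory and 961-fold higher in effector memory. The lower interval limits were 159 and 781. E2f1 was at 1.47, 17.9 and 64.4 CPM. The origin licensing and G1/S list, which contains Ccne1 and Ccne2, had 10 of 16 measured genes higher in central memory and 17 of 17 in effector memory (median log2 ratios 1.13 and 2.95). Other scalings gave 8 to 10 genes for central memory. Cdc6, which loads the replicative helicase, was at 0.288, 17.8 and 103 CPM. The S, G2 and M phase cyclins and kinases had 8 of 10 higher in central memory and 10 of 10 in effector memory, and Ccna2, cyclin A2, was at 0.323, 46.9 and 279 CPM.

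Of 17 genes for ubiquitin ligases that act on G1 cyclins and inhibitors, 5 were higher and none lower in central memory against naive, and 5 were higher and 1 lower in effector memory (median log2 ratios 0.41 and 0.45). The count of 5 higher in effector memory is near the 22.3% of all genes. Skp2, the subunit that recognises p27 for degradation, was at 2.84, 9.94 and 19.0 CPM. Its cofactor Cks1b was 15.9-fold higher in central memory (interval 11.5 to 22.4) and 90.4-fold higher in effector memory (interval 66.3 to 127). Dtl, a subunit of a ligase for p21, was 50.7-fold higher in central memory (interval 28.8 to 98.5) and 234-fold higher in effector memory (interval 134 to 454). Genes that activate or phosphorylate CDKs had 2 of 9 higher in central memory and 7 of 11 in effector memory, with none lower. Cdc25b, a phosphatase that activates CDKs, was at 30.7, 111 and 164 CPM, and Wee1, a kinase that inhibits them, at 2.44, 17.6 and 41.0 CPM.

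Known p53 targets other than Cdkn1a had called genes in both directions. In central memory against naive, 6 of 15 measured were higher and 2 lower (median log2 ratio 0.88, against 0.14 over all genes). In effector memory against naive, 6 of the 15 were higher and 2 lower, beside 22.3% and 15.6% of all genes, with a median log2 ratio of 0.01 that ran from -0.09 to 0.05 over the scalings. Between the memory libraries, 3 of the 15 were higher and 4 lower in effector memory (median log2 ratio 0.03), beside 14.8% and 12.8% of all genes. Phlda3 was at 0.575, 6.28 and 12.1 CPM and Sesn2 at 3.27, 16.8 and 29.8 CPM, while the death receptor Fas was called lower in both memory libraries against naive. The part of p53 in the Cdkn1a values was not tested.

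Genes known to hold T cells in quiescence were mostly lower in effector memory, with 8 of 14 measured genes called lower and none higher against naive (median log2 ratio -1.39). In central memory 3 were lower and 1 higher (median log2 ratio -0.30). Klf2 was at 512, 250.4 and 7.25 CPM, and Btg1, an antiproliferative factor, at 1419, 570.0 and 144 CPM. Foxo1, a factor known to promote Cdkn1b transcription, was at 399, 224 and 96.0 CPM. The part of Foxo1 in the Cdkn1b values was not tested. Of 13 cyclins and CDKs linked to transcription rather than to the cell cycle, none was called in central memory against naive, and 1, Cdk13, was lower in effector memory (2.34-fold, interval 2.24 to 2.44).

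**Figure D5:**
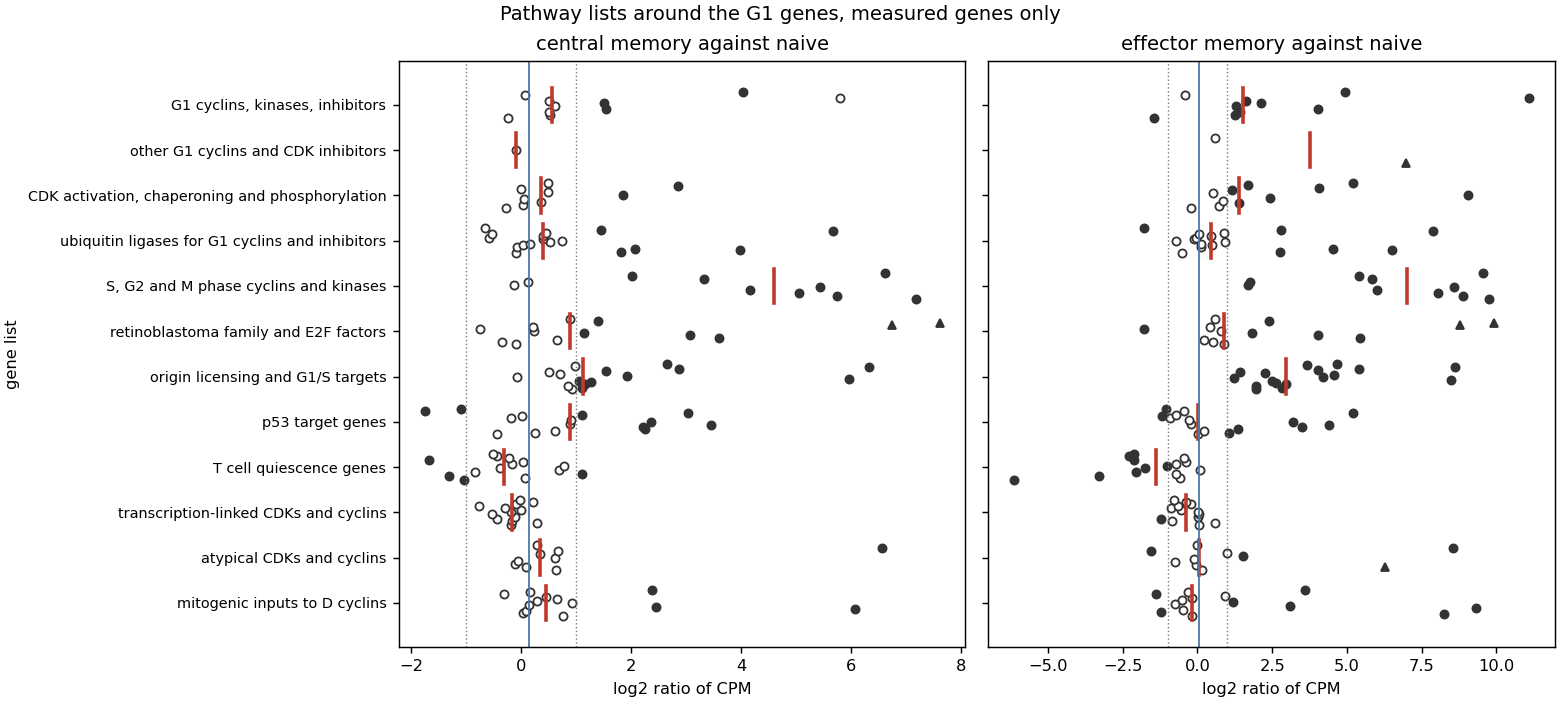
Log2 ratio of CPM of each measured gene in the 10 G1 genes and 11 pathway lists, for central memory and effector memory against naive. Filled points were called, triangles are bounds for genes with 0 counts in 1 library, red bars are list medians, the blue line is the median over all genes at 5 CPM and dotted lines mark a ratio of 2. The S, G2 and M phase list lies farthest to the right (medians 4.60 and 7.01). The quiescence list and the list of transcription-linked CDKs and cyclins have their medians left of the blue line in both panels.

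Genes with the most similar pattern were sought as those with the smallest distance in the pair of log2 ratios to naive, among 7970 genes with at least 20 CPM in some library. Each pattern rests on 3 libraries, so many genes fit a common pattern. Ccnd2 had 136 genes within a distance of 0.25, led by Stk4, Clcn4 and Prkag2. Ccnd3 had 199, led by Dhcr7, Tada2a and Rab3d. Cdk6 had 15, led by Nabp1, H2afx and Trappc6a, and Cdkn2c had 4, among them Trib3 and Il18rap. No gene came within 0.25 of Cdkn1a. The nearest, at 0.53, was Gpr141, with 0.0719, 2.74 and 152 CPM.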

How the data were processed

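The deposited table of read counts per gene symbol was used as it is, with columns TN, TCM and TEM read from their abbreviations as the 3 sample titles. Per the submitters' processing notes, the authors used CASAVA, HISAT2 2.0.5, featureCounts 1.5.0-p3 and mm10; the sources used here give no annotation, strand setting or rule for multi-mapping reads. Symbols were matched to GENCODE M21 (GRCm38), 98.7% of them, for positions and merged exon lengths. TMM factors (edgeR 4.0.16, R 4.3.3) ran from 0.967 to 1.04. Ratios have Clopper-Pearson intervals and levels exact Poisson intervals at 95%. The call rule was run over all genes. Ratios against 0 counts were taken against 3 counts, and these ratios are not interval limits. Similar patterns used log2(CPM + 0.1).

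Named were the 10 genes and, per list and comparison, up to 4 called genes with the largest ratios. Tfdp1, E2f3, Foxo1, Myc, Fas, Ccnd1, Cdkn1c, Cdkn2b, Cdkn2d, Usp28, Foxp3, Cd40lg, the overlapping genes and the motifs fall outside this rule. They were chosen after values were seen. A few genes chosen by the naming rule are not reported here. The members and lists were chosen with earlier results of these data known. Alternatives were other scalings (total counts, DESeq2 1.42.0, upper quartile, median centring), levels, ratios and lengths. Computation used Python 3.11.15 with SciPy 1.17.1.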

Additional observations from a re-analysis of the deposited data

How the results depend on the processing

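The 3 other scalings and median centring moved the median of all genes by at most 0.12 on the log2 scale (-0.12 with upper quartile factors, central memory against naive). Over these 4 settings, 117 of 120 log2 ratios of the 10 genes kept their sign. The exceptions were those of Cdkn1b for central memory against naive, at -0.03 with DESeq2 size factors, -0.05 with upper quartile factors and -0.001 with median centring. The scalings changed 1 count of called members: Ccne1 joined Ccne2, Cdk2 and Cdkn1a between the memory libraries under median centring, for a count of 4. A minimum of 1 CPM added Cdkn1a in central memory against naive, and one of 20 CPM removed Ccne2. With a minimum ratio of 3, 1 member was higher in central memory and 5 in effector memory against naive, and no member was lower in effector memory against naive (0) or against central memory (0). With a minimum ratio of 1.5, 8 members were higher in effector than in central memory, so that count depends on the ratio chosen. Over all genes, central memory against naive gave 2143 higher and 1051 lower at a ratio of 1.5, 636 and 264 at 3, 544 and 286 at 20 CPM, 937 lower at 1 CPM, and 2051 and 1540 with no minimum level. Effector memory against naive gave 2649 lower at 1.5, 1446 higher and 750 lower at 3, and 3667 and 2635 with no minimum level. Effector against central memory gave 2396 and 2528 at 1.5, 859 and 514 at 3, and 2866 and 2034 with no minimum level. Shares within a library moved with the length used. In naive, central memory and effector memory, the Ccnd3 share was 24.7%, 35.9% and 68.0% per longest transcript and 16.7%, 25.4% and 56.4% of raw counts. The Cdk6 share was 12.6%, 21.1% and 20.3% per longest transcript and 44.8%, 60.02% and 58.8% of raw counts, so which of Cdk4 and Cdk6 leads changes without a length. The Cdkn1a share in central and effector memory was 3.29% and 65.0% per longest transcript and 1.53% and 45.9% of raw counts, which puts Cdkn1b ahead in effector memory when length is left out. No paired analysis was possible because each group has 1 library. Depth limits the ratios that rest on the 2 naive counts of Cdkn1a, and the lack of replicates limits every ratio.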

Other observations

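The genes named in this section were picked for the largest called ratios in their lists, so their ratios do not stand for the lists. Mycn had 4, 18 and 1397 counts (naive, central memory, effector memory) and was 86.9-fold higher in effector than in central memory (interval 54.8 to 147). Il2ra, the high-affinity chain of the interleukin 2 receptor that signals to D cyclins, was at 0.719, 48.6 and 456 CPM, while Stat5a, a factor downstream of it, was 2.38-fold lower in effector than in central memory (interval 2.23 to 2.53). Of 14 genes for mitogenic inputs to D cyclins, 5 were higher and 2 lower in effector memory against naive (median log2 ratio -0.18), beside 22.3% and 15.6% of all genes. The count lower is near the share over all genes.

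Among 12 atypical CDKs and cyclins, 3 of 10 measured were higher and 1 lower in effector memory against naive, near the 22.3% and 15.6% of all genes, with a median log2 ratio of 0.06 that ran from -0.04 to 0.10 over the scalings. Cables1, an adaptor that links CDKs to other kinases, had 2, 244 and 852 counts and was 371-fold higher in effector memory than in naive (interval 102 to 3066). Cdk14 had 0, 73 and 268 counts and was 77.7-fold higher in effector memory than in naive, with 3 counts assumed in naive. Ccnj, cyclin J, was 4.64-fold lower in effector than in central memory (interval 3.88 to 5.57).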
